A study of Mus musculus with 3 samples.

Results

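Organoids that had received protons were compared with organoids that had received the same physical dose of photons. The comparison rested on the cell barcodes of the proton and photon libraries with 500 or more detected genes and no more than 20% of unique molecular identifiers (UMIs, 1 per captured RNA molecule) from mitochondrially encoded genes. These were 15041 of 15926 photon barcodes and 13956 of 14525 proton barcodes, 28997 of the 42216 kept cells of the series. The organoids came from submandibular salivary glands of 4 C57BL/6 mice, aged 8 to 12 weeks. The photon group received 7 Gy of photons and the proton group 7 Gy in the plateau region of a proton beam, both on day 5 of culture, and both were collected on day 11, which was 6 days later. An unirradiated control group, kept under the same culture conditions, served as background. The labels name the same strain for every group and no engineered allele. All groups were cultured alike in Matrigel with EGF, FGF2, dexamethasone, Y27632 and media conditioned by Wnt3a and R-spondin1 producing cells, and were handled on the same day. From each group 45000 living (propidium iodide negative) cells were sorted for droplet 3' RNA sequencing. Each group was 1 library of cells from all animals, with no label that assigns a cell to its animal.

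Photons deposit energy sparsely along their path and with decreasing dose at depth, whereas a proton beam has a low plateau before a peak near the end of its range. Both break DNA, and damaged epithelial cells are known to activate p53, to stop dividing, and, when nuclear or mitochondrial nucleic acid reaches the cytosol, to switch on interferon-stimulated genes. Organoids of the submandibular gland are grown from its ductal and stem or progenitor cells and lack the nerves, vessels and immune cells of the gland.

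The kept cells held 46936995 UMIs in the photon library and 36692939 in the proton library, with medians of 2808 and 2223 UMIs and of 1454 and 1229 detected genes per cell. Mitochondrially encoded genes took 2.23% of photon UMIs and 1.80% of proton UMIs, against 3.29% in control. The 2 libraries shared 53 kept barcodes. All 10 epithelial markers were measured in both libraries, with a summed level of 3784 CPM in photon (a gene's count scaled to a fixed total per library) and 2416 in proton. Epcam, an epithelial adhesion molecule, was at 1422 CPM in photon, 686 in proton and 1204 in control. The 10 basal duct markers summed to 6979 CPM in photon, 4114 in proton and 6346 in control, with Krt14 at 2100, 816 and 1536 CPM. The luminal duct markers, of which 8 of 12 were measured, summed to 10021, 8231 and 7895 CPM. Members were divided. By ratio of proton to photon, 2 of the epithelial markers were at least 1.5-fold higher and 3 lower, and of the basal ones 1 and 4. Ratios above 1 included Itgb4 (1.77), Trp63 (1.46), Itga6 (1.30), Col17a1 (1.29) and Dst (1.18) among basal markers. Among epithelial ones they included Esrp1 (1.78), Grhl2 (1.62) and Cdh1 (1.20). The part of these marker differences in the results that follow was not tested, and ratios inside clusters of cells are given beside the main ones. None of the 8 fibroblast, 12 immune, 8 endothelial or 7 neural and glial markers reached a mean of 10 CPM, and the summed level of each of these lists was between 3.09 and 5.82 CPM in both libraries. With 1 library a group no difference could be tested. Ratios of summed CPM are therefore given as sizes, each with an exact 95% Poisson interval that covers counting error only and not the variation among cells, animals, cultures or preparations. The interval treats UMIs as independent, so it is too narrow for a gene whose UMIs stand in few cells.

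Of 8560 genes with a mean of at least 10 CPM over both libraries, 1909 (22.3%) were at least 1.5-fold higher in proton and 1252 (14.6%) at least 1.5-fold lower, together 36.9%. Counting error was small beside these sizes, since 87.8% of the intervals excluded a ratio of 1. The median gene had a log2 ratio of 0.11. Scaling the libraries by the median ratio instead of by total UMIs moves every value down by that amount, and the split then became 1348 higher and 1621 lower. Higher genes made up 60.4% of the calls with total UMIs and 45.4% with the median ratio, so the balance of directions depends on the scaling. In sums over a library, fewer cells of a type and less RNA per cell cannot be told apart.

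**Figure D1:**
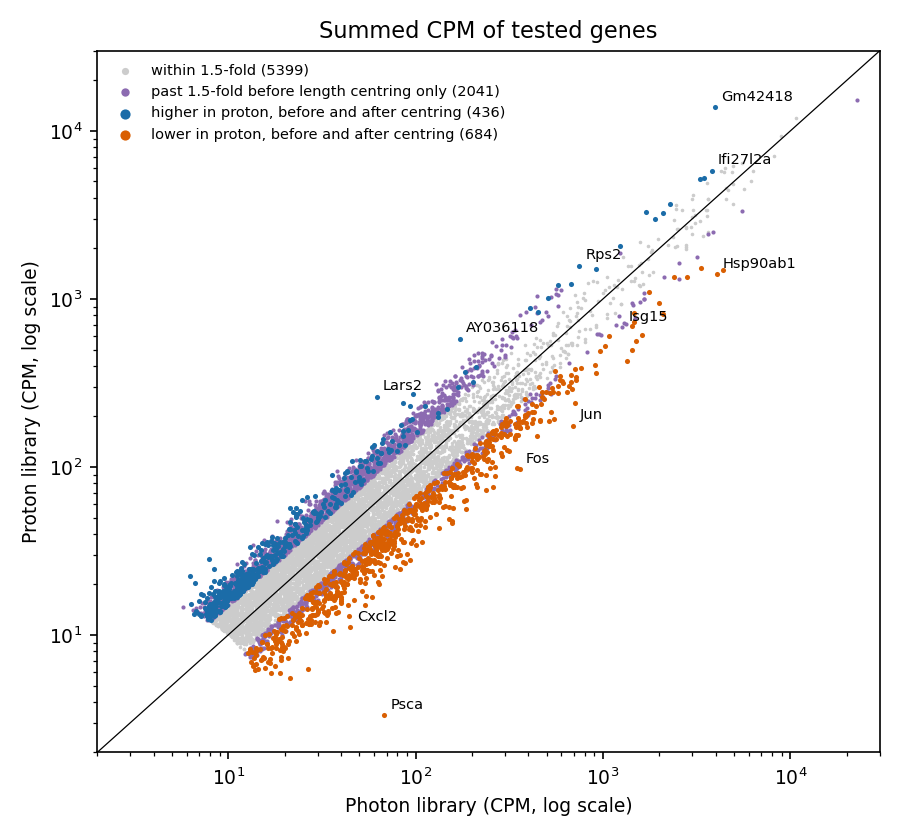
Each point is 1 of the 8560 tested genes, placed by its summed CPM in the photon library (x axis, log scale) and the proton library (y axis, log scale), with the line of equality. Blue and orange points (436 and 684 genes) were past 1.5-fold both before and after length centring, purple points only before it, and Psca lies farthest below the line.

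The direction of the difference followed gene length. Among the 428 genes with the shortest span from first to last annotated base (median 2176 bases), the median log2 ratio was -0.35, with 5.37% of genes at least 1.5-fold higher in proton and 32.7% at least 1.5-fold lower. Among the 428 genes with the longest span (median 330616 bases) it was 0.82, with 80.4% higher and 0.234% lower. The difference between these end classes, the length gradient, was 1.17 on the log2 scale. Against control, the median moved from 0.20 in the shortest class to -0.37 in the longest in photon, and from -0.14 to 0.46 in proton. The 2 libraries thus lay on opposite sides of the control library that both ratios share. Genes spanning at least 100 kb took 10.5% of photon UMIs, 13.4% of control UMIs and 16.5% of proton UMIs.

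**Figure D2:**
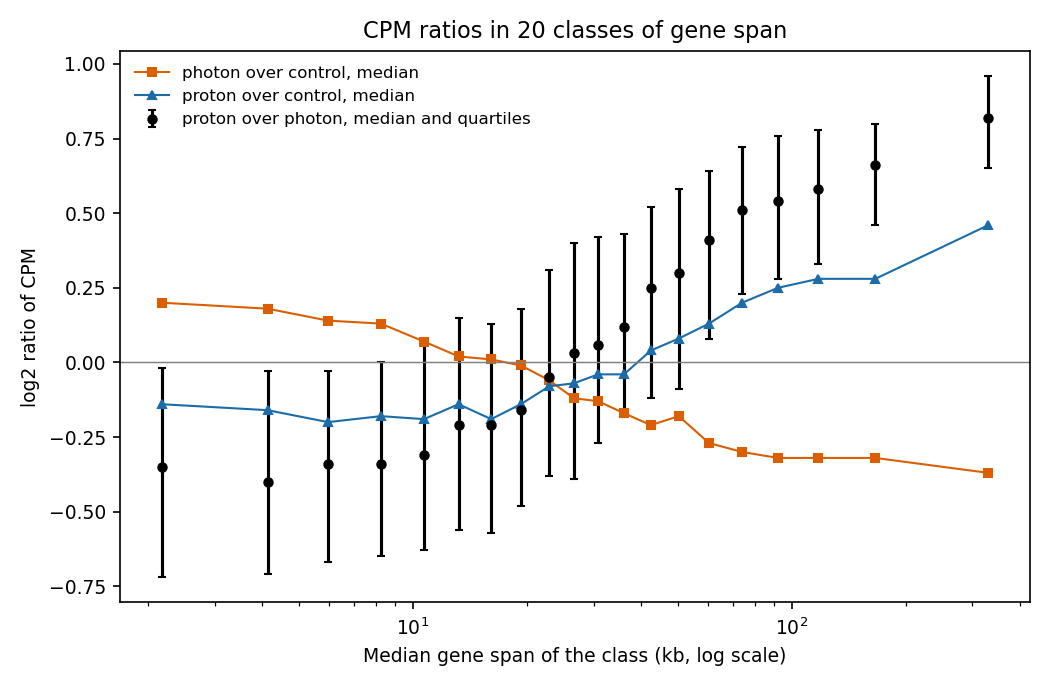
The x axis is the median span of each of 20 equal-size classes of genes (kb, log scale) and the y axis the log2 CPM ratio; black points and bars are the median and quartiles of proton over photon, and lines join the medians of each irradiated library over control. Proton over photon climbs from -0.35 to 0.82 while photon over control falls from 0.20 to -0.37.

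Both intron and exon length moved with the ratio. Across genes, the log2 ratio had a Spearman correlation of 0.60 with span, 0.59 with summed intron length, 0.54 with exonic length, -0.08 with GC content and -0.07 with the mean CPM (8560 genes of the same 2 libraries, a description only). Classes of intron and exon length were then formed from 8457 genes, without the mitochondrially encoded and ribosomal protein genes. The 147 of these without an annotated intron had a median log2 ratio of -0.41. Among the 147, the median was -0.62 in the class of shortest exonic length (86 genes) and 0.07 in the third of 4 classes (21 genes). The 13 mitochondrially encoded genes, left out here, had a median of 0.04. In the class of genes with the most intron sequence, the median was 0.15 for the shortest exonic lengths and 0.69 for the longest. The sources do not say whether intronic reads were counted.

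Cells also differed one by one. The median cell drew 10.7% of its UMIs from genes of at least 100 kb in photon (quartiles 8.27% and 13.5%) and 16.6% in proton (quartiles 12.7% and 20.9%). Depth moved with this share. Among cells of 2000 to 4000 UMIs the medians were 10.2% and 15.5%, and among those of 500 to 1000 UMIs they lay in the opposite order, at 27.1% and 23.6%. Inside the 6 clusters of cells with at least 100 cells in both libraries, the gradient was between 0.58 and 1.15. Cluster 3, whose leading genes (Anks1b, Adam12, Pcdh9) are long, drew 22.4% of its UMIs from long genes in photon and 21.7% in proton by median. Its cells were unlike in depth, with medians of 1473 UMIs in photon and 2200 in proton, and of 4.57% and 2.05% mitochondrial UMIs. It held 8.85% of photon cells and 23.3% of proton cells. Its leading gene Pcdh9 itself had a ratio of 2.47, so these sizes are not compared. Leaving that cluster out gave a gradient of 1.05. When clusters were given equal weight in both libraries, 1104 genes were higher in place of 1909 and the gradient was 0.87, and with 12 finer clusters the values were 589 genes and 0.61. Higher genes then made up 49.3% and 36.4% of the calls. The clusters were built from these same cells.

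To keep length apart, the median log2 ratio of a gene's span class was subtracted from the gene's own value (length centring), and genes were sorted into those past 1.5-fold both before and after it and those past it only before. The first set held 436 genes higher in proton (5.09% of those tested) and 684 lower (7.99%), together 13.1%. The second held 1473 higher and 568 lower genes, which are treated as tied to length. That name rests on the 1.5-fold threshold, and a gene in this set can keep much of its difference after centring. Higher genes had a median span of 87655 bases before centring and 23010 after it, against 28733 for all tested genes, while the lower ones had 11016 and 16974. With equal cluster weights, 640 of the 684 lower genes and 327 of the 436 higher genes were still past 1.5-fold, and all 1120 kept their direction. With 12 clusters the counts were 623 and 270. Within the 6 clusters taken one by one, 649 lower and 391 higher genes had the same direction in every cluster, and 377 and 102 were past 1.5-fold in every one.

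Relative to the control library, most genes of the lower set differed on the proton side. Of the 684, 452 were within 1.5-fold of control in photon and at least 1.5-fold below it in proton, 68 were above control in photon and level with it in proton, 107 were level in both, and 23 were above control in both. Of the 436 higher genes, 204 were level with control in photon and above it in proton, 157 were level in both, 46 were below control in photon only, and 23 were above control in both. Both ratios use the same control library.

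The list with the lowest median was that of the immediate early genes, which encode transcription factors and feedback regulators that cells induce within minutes of a stimulus. Of 23 measured members, 14 were at least 1.5-fold lower in proton, 0 were higher, and 10 of the 14 remained so after length centring. Over all tested genes 14.6% were lower and 22.3% higher, and 7.99% and 5.09% after centring. The counts of this and the following lists are to be read beside these shares. The list median was -0.86 as measured and -0.48 after centring, beside 0.11 and 0.00 for all tested genes, and it lay between -0.94 and -0.77 in the 6 clusters. The summed level of the list was 3914 CPM in photon, 2007 in proton and 4558 in control.

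Jun, which pairs with Fos proteins in AP-1, was at 692 CPM in photon, 176 in proton and 931 in control. Its ratio of proton to photon was 0.255 (interval 0.248 to 0.262), and 0.335 after centring. Proton was the lowest of the 3 libraries, and within clusters the ratio was between 0.223 and 0.341. After each cell was thinned to 1000 UMIs, 47.2% of 14283 photon cells and 15.8% of 12737 proton cells held a Jun UMI (73.7% and 31.7% without thinning). The lowest share in any cluster was 35.1% in photon (cluster 3) and 12.9% in proton (cluster 0). Fos, its usual partner, was at 359 CPM in photon, 96.9 in proton and 215 in control, a ratio of 0.270 (0.260 to 0.279). Photon lay above control and proton below it. Among the other members, the ratio was 0.289 for Dusp1 (a phosphatase that switches off MAP kinases), 0.309 for Ier3, 0.377 for Atf3 (a stress-induced repressor), 0.427 for Btg2, 0.447 for Jund and 0.504 for Ier2. Ccn1, a secreted matrix protein and YAP target, was at 134 CPM in photon, 43.5 in proton and 237 in control, a ratio of 0.324. Not all early genes shared this. Egr1 had a ratio of 0.942, Myc 0.891 and Dusp6 1.10, while Fosl2 was at 1.40.

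Chemokines are secreted proteins that attract leukocytes. Of 10 measured chemokines, 4 were lower in proton before and after centring and 0 were higher, and the 4 are all ligands of the CXC class. The other 6 were within 1.5-fold, among them the CXC ligands Cxcl5 (0.864), Cxcl16 (0.808) and Cxcl17 (0.923), and Cx3cl1 (1.43) and Ccl25 (1.01). Cxcl2 was at 44.9 CPM in photon, 11.1 in proton and 65.2 in control, a ratio of 0.247 (0.222 to 0.275). Cxcl1 was at 151, 48.9 and 171 CPM in the same order, a ratio of 0.323 (0.306 to 0.340), and Ppbp at 38.6, 13.7 and 67.2 CPM, a ratio of 0.355. All 3 attract neutrophils. Photon lay below control for each of them, and proton lower still. The differences were uneven across cells. In cluster 5 the Cxcl1 ratio was 0.105, against 0.282 to 0.415 in the other 5 clusters. The Cxcl2 ratio ran from 0.0721 to 1.51 and the Ppbp ratio from 0.151 to 2.30, each with 1 cluster higher in proton. Cluster 5, which has Cxcl2 among its leading genes, held 328 photon cells (2.18%) but 1050 of the 2106 photon UMIs of Cxcl2. The pooled Cxcl2 ratio thus rests largely on few cells. Cxcl10, an interferon-induced ligand that attracts T cells, was at 85.7 CPM in photon, 27.3 in proton and 1.82 in control, a ratio of 0.318 (0.296 to 0.341). After thinning, 3.56% of photon cells and 1.78% of proton cells held a Cxcl10 UMI (6.93% and 3.63% without thinning), against 0.113% in control. The lowest share in any cluster was 1.82% in photon (cluster 2, 1100 thinned cells) and 0.324% in proton (cluster 5, 309 thinned cells). These are different clusters, and the proton value rests on very few cells.

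Ccl5, another interferon-induced chemokine, was at 152 CPM in photon, 207 in proton and 0.936 in control, a ratio of 1.36 (1.32 to 1.41) that stayed within 1.5-fold as measured and was 1.80 after centring. It rested on few cells. A Ccl5 UMI was held by 4.48% of photon cells and 4.55% of proton cells (2.95% and 3.32% after thinning). The 1% of cells richest in Ccl5 held 80.5% of its UMIs in photon and 81.5% in proton. Within clusters the ratio ran from 0.756 to 2.48, and over the alternatives its log2 value ran from 0.06 to 0.52. The median of the chemokine list was -0.26, and -0.03 after centring, and ran from -1.59 to 0.16 over clusters. Of 17 measured genes of the NF-kB response, which overlaps this list in Cxcl1 and Cxcl2, 5 were lower and 1 was higher. The shares over all tested genes were 14.6% and 22.3%. Nfkbia, the inhibitor that NF-kB induces against itself, was at 312 CPM in photon and 164 in proton, a ratio of 0.526 that was 0.693 after centring. Rela, which encodes an NF-kB subunit, was the higher one, at 23.3 and 35.5 CPM, a ratio of 1.52. Tnfaip3 (1.06), Icam1 (0.997) and Nfkbiz (1.05) had ratios near 1, so the members of the list were divided.

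The stretches of 250 bases upstream of the annotated start of 4 of these genes are shown because the chemokine and early gene groups are those for which start-proximal elements are best known (RefSeq, GRCm38.p6, 5′ to 3′ toward the start). The table held promoters for 6848 of the 8560 tested genes. All 4 stretches shown hold a marked match, whereas those of the early genes Jun and Ier3, not shown, hold none of the motifs marked here. Capitals mark the kappaB match GGGANTTTCC in Cxcl1 and Cxcl2, the TATA box TATAAA in Fos, and in Cxcl10 the interferon element TTTCNNTTTC, matched on the opposite strand, and the AP-1 match TGANTCA.
Cxcl1, chr5:90890995-90891244, plus strand: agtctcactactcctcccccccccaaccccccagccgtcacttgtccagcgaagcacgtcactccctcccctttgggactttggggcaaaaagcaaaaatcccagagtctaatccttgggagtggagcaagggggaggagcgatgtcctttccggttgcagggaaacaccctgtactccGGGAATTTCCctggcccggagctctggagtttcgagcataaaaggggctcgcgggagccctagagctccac
Cxcl2, chr5:90903649-90903898, plus strand: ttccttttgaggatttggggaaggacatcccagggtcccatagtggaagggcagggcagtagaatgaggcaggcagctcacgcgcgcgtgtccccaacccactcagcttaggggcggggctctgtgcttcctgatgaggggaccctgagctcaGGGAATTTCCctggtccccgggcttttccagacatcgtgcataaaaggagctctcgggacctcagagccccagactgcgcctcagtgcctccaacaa
Cxcl10, chr5:92348890-92349139, minus strand: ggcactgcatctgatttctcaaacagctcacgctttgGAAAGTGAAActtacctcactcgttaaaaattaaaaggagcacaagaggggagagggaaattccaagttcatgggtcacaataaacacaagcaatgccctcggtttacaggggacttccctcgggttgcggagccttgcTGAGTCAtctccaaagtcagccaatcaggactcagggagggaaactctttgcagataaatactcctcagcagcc
Fos, chr12:85473640-85473889, plus strand: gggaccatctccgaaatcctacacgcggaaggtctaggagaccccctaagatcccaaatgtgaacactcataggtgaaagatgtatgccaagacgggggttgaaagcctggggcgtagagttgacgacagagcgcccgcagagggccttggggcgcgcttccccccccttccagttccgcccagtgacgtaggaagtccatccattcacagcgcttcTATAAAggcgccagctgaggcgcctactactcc
The kappaB match lay 71 to 62 bases before the start in Cxcl1 and 97 to 88 bases before it in Cxcl2, and the Fos TATA box 33 to 28 bases before it. In Cxcl10 the interferon element lay 213 to 204 and the AP-1 match 74 to 68 bases before the start.

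Searched on both strands over all genes, the kappaB match stood in 5 of the 540 promoters of the lower set (0.926%), in 33 of 6848 promoters of tested genes (0.482%) and in 0.356% of the 32851 promoters in the table. The AP-1 match stood in 7.41% of promoters of the lower set, 3.80% of those of the higher set, 5.43% of those of tested genes and 6.75% of all. The CRE match TGACGTCA stood in 4.63%, 2.92%, 3.27% and 1.55% in the same order, and the CCAAT box, written CCAAT, in 45.7%, 37.4%, 40.2% and 33.8%. The E2F match TTTNNCGC stood in 8.15%, 8.19%, 8.88% and 4.28%. The lower set held the first 4 motifs at a higher share than the tested genes, on few promoters for kappaB, and the E2F match at a lower one. Where no letters matched, this says only that they are not in this window, and a match describes letters and not a binding site.

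Chaperones made a further group in the lower set. The unfolded protein response and ATF4 list, whose members fold proteins in the endoplasmic reticulum or answer to its stress, had 15 of 28 measured members lower in proton and 2 higher, with 12 and 1 remaining after centring. Its median was -0.61, and -0.31 after centring, and it was between -0.72 and -0.47 in the 6 clusters. Pdia6, a disulfide isomerase, was at 346 CPM in photon, 98.1 in proton and 217 in control, a ratio of 0.284 (0.274 to 0.294). Photon lay above control and proton below it. Hspa5, the main chaperone of the reticulum (BiP), was at 661, 303 and 490 CPM, a ratio of 0.459 (0.449 to 0.469). Hsp90b1 (0.543), Pdia3 (0.541), Dnajb11 (0.441), Creld2 (0.447) and Manf (0.559) were lower as well, and so was Ppp1r15a, which ends the translational arrest of the stress response, at 0.329. The sensor gene Atf6 had a ratio of 1.53, or 0.973 after centring, and Xbp1, a transcription factor of the response, one of 0.956. Edem1, which sends misfolded glycoproteins to degradation, was higher, at 1.62 and 1.56 after centring.

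Among 19 measured heat shock chaperones of the cytosol and mitochondria, 8 were lower and 1 was higher, with 5 and 1 remaining after centring. Hsp90ab1, the constitutive cytosolic HSP90, was one of the most abundant genes concerned, at 4053 CPM in photon, 1407 in proton and 3212 in control, a ratio of 0.347 (0.344 to 0.350). Its cochaperone Ahsa1 had a ratio of 0.352, Dnaja1 0.442 and the mitochondrial chaperonin Hspd1 0.469. The strictly heat-inducible Hspa1b went the other way, at 29.7 CPM in photon, 48.0 in proton and 41.7 in control, a ratio of 1.62. Hspa1b has a near-identical neighbour, Hspa1a, and reads may be split between them. The cold-inducible RNA-binding proteins Cirbp (156 CPM in photon, 47.9 in proton, 265 in control) and Rbm3 (518, 188 and 344 CPM) were both lower in proton, with ratios of 0.307 and 0.363.

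**Figure D3:**
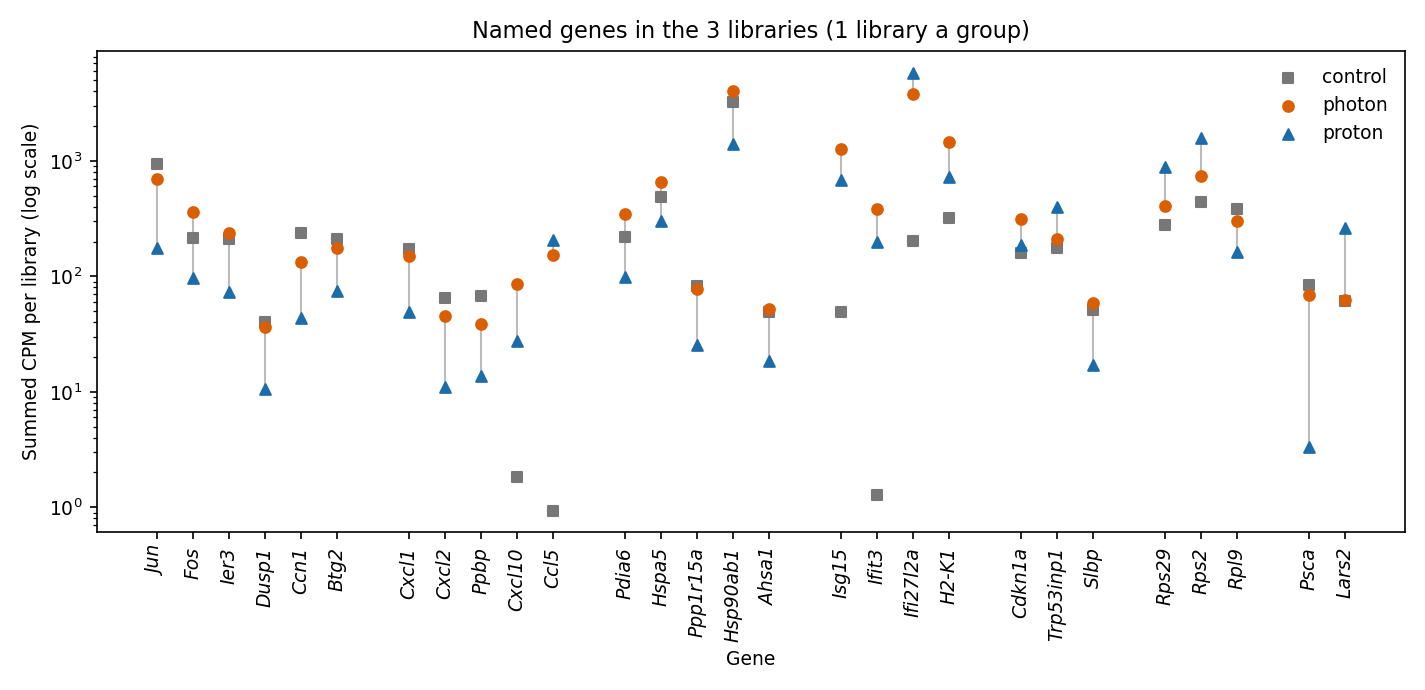
Each column is a gene and the y axis is its summed CPM on a log scale in the control (squares), photon (circles) and proton (triangles) library, 1 library a group, with a grey line from photon to proton. For the early genes, CXC chemokines other than Cxcl10, and chaperones the triangle is the lowest of the 3 marks, while Isg15, Ifit3 and H2-K1 in proton lie between control and photon.

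Interferon-stimulated genes were high in both irradiated libraries. The 43 measured members of the list summed to 11522 CPM in photon and 12201 in proton, and the whole list to 1187 in control, with a median log2 ratio of -0.10, and -0.01 after centring. Of the members, 5 were higher in proton and 8 lower, a share past 1.5-fold below the 36.9% of all tested genes, and 4 and 3 remained after centring. Ifi27l2a, a small interferon-induced protein, alone supplied 3810 CPM in photon, 5803 in proton and 203 in control, a ratio of 1.52 (1.51 to 1.53) and of 1.57 to 2.26 within clusters. Without it the other 42 members summed to 7712 CPM in photon and 6398 in proton, a ratio of 0.830. Isg15, a ubiquitin-like modifier, was at 1267 CPM in photon, 680 in proton and 49.2 in control, a ratio of 0.537 (0.529 to 0.545). Centring brought it to 0.683, just within 1.5-fold, so it falls in the set past 1.5-fold only before centring. Its log2 ratio was -0.90 as measured and -0.55 after centring, so much of the difference remained. Its ratio was between 0.453 and 0.649 in the 6 clusters.

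Within the OAS and IFIT families the members were split. Oas2 (1.60) and Oas3 (1.68), which make the second messenger that activates RNase L, were higher in proton, while Oas1a of the same family was lower at 0.557, or 0.689 after centring. Ifit3, which binds foreign RNA with its relatives, was at 385 CPM in photon, 198 in proton and 1.27 in control, a ratio of 0.515, whereas Ifit1 had a ratio of 0.800 and Ifit2 one of 1.01. The ubiquitin ligase gene Dtx3l (1.55) was higher and the chaperone gene Rtp4 (0.489) and the GTPase gene Ifi47 (0.480) were lower. Of the transcription factors of the pathway, 3 were close between libraries: Stat2 had a ratio of 0.995, Irf7 0.957 and Irf9 0.951. Ifi27, whose name resembles that of Ifi27l2a, was at 33.5 CPM in photon and 201 in control, with a ratio of proton to photon of 0.687.

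Of 14 measured sensors of cytosolic nucleic acid, 2 were higher and 0 lower, a smaller share than the 22.3% of all tested genes that were higher, and 0 remained after centring. Ifih1 (MDA5), at 105 CPM in photon and 159 in proton, had a ratio of 1.52, and 1.23 after centring. Ddx58 (RIG-I) had a ratio of 1.19. Antigen presentation by MHC class I, which is also interferon-induced, had 6 of 19 measured members lower and 2 higher, and after centring 1 remained in each direction. Over all tested genes 14.6% were lower and 22.3% higher, and 7.99% and 5.09% after centring. H2-K1, a class I heavy chain, was at 1458 CPM in photon, 731 in proton and 319 in control, a ratio of 0.501, or 0.660 after centring. H2-D1 had a ratio of 0.537, or 0.707 after centring. B2m, the shared light chain, was at 1643, 1226 and 193 CPM, a ratio of 0.746. Tapbp (tapasin), which loads peptides, was higher, at 81.2, 135 and 37.2 CPM, a ratio of 1.66. Class I heavy chain genes resemble each other closely, and how reads were divided among them is not known. The list median of -0.35 became -0.01 after centring.

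Genes of the p53 response, which stops the cycle and repairs or removes damaged cells, gave no common direction. Of 32 measured targets, 3 were higher and 6 lower, 2 and 3 after centring, with a median of -0.08 and, after centring, 0.06. Over all tested genes 22.3% were higher and 14.6% lower, and 5.09% and 7.99% after centring. The counts after centring were thus near the shares of all tested genes. Cdkn1a, which encodes the cell cycle inhibitor p21, was at 316 CPM in photon, 186 in proton and 158 in control, a ratio of 0.588 (0.572 to 0.605) and of 0.343 to 0.567 within clusters. The pooled value lies above all 6 cluster values. After centring it was 0.728, within 1.5-fold. After thinning, 23.2% of photon cells and 15.0% of proton cells held a Cdkn1a UMI (43.6% and 28.9% without thinning). The lowest share in any cluster was 12.6% in photon (cluster 0) and 6.47% in proton (cluster 5, 309 thinned cells). Mdm2, the ligase that degrades p53, was at 121 CPM in photon, 147 in proton and 72.1 in control, a ratio of 1.22, with cluster values from 0.854 to 1.04, so its small difference goes the other way in 4 of 6 clusters. Trp53inp1, a proapoptotic target, was at 209, 395 and 175 CPM, a ratio of 1.89, and 2.11 after centring. Plk2 (0.491), Btg2 (0.427) and Gadd45a (0.444) were lower.

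Factors linked to senescence, a lasting arrest with secretion of growth factors and chemokines, had 11 of 21 measured members lower in proton and 0 higher, with 8 remaining after centring. The list median was -0.61, and -0.54 after centring. Cdkn2a, which encodes p16 and p19ARF, was at 94.1 CPM in photon, 55.7 in proton and 60.9 in control, a ratio of 0.592. Areg, an EGF receptor ligand, was at 125, 65.0 and 70.5 CPM, a ratio of 0.519. Spp1 (osteopontin) was at 19.0, 5.97 and 1.29 CPM, a ratio of 0.313. Igfbp7 (0.631) and Igfbp2 (0.442) were lower too. The Igfbp2 ratio was 0.504 in cluster 0, where most of its UMIs stood, and 0.427 in cluster 5. In cluster 3 it was 3.11, on 7 photon and 60 proton UMIs. In clusters 1, 2 and 4, also with few UMIs, the counting interval included 1. In this group proton lay near control for Cdkn2a and Areg, and between control and photon for Spp1 and Igfbp2. Lmnb1, whose loss is a mark of senescent cells, was also lower, with a ratio of 0.656.

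Cell cycle genes had more members lower than higher in both phase lists. For S phase, 15 of 32 measured genes were lower and 1 higher (9 and 0 after centring), with a median of -0.42 before and after centring. For G2 and M phase, 15 of 44 were lower and 1 higher (10 and 1 after centring), with medians of -0.39 and -0.35. Slbp, which binds histone mRNA, was at 58.4 CPM in photon, 16.9 in proton and 50.9 in control, a ratio of 0.289. Clspn (0.432), Rpa2 (0.406), Fen1 (0.467), Mcm3 (0.528), Cdca8 (0.449), Birc5 (0.474) and Hmgb2 (0.496) were lower too. Not all members were lower. Mki67, a proliferation marker, was at 37.4, 44.1 and 11.0 CPM, a ratio of 1.18 that was above 1 in all 6 clusters, and Top2a had a ratio of 0.937 and Mcm2 one of 1.16. The G2 and M phase median was -0.26 and -0.29 in clusters 0 and 1 and 0.30 in cluster 2, so it changed sign between clusters.

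Lower values were also seen in metabolic lists. In cholesterol synthesis, 9 of 18 measured enzymes and regulators were lower and 1 was higher, with 5 and 0 after centring and a median of -0.56, or -0.40 centred. Pmvk (phosphomevalonate kinase) was at 54.2 CPM in photon, 17.1 in proton and 29.8 in control, a ratio of 0.315, and Cyp51 at 155, 79.3 and 64.2 CPM, a ratio of 0.512. In the NRF2 and glutathione list, 8 of 31 were lower and 1 higher (6 and 1 after centring), with Gstp1 at 0.332, Hmox1 at 0.455 and Prdx1 at 0.566, while the ferritin light chain Ftl1 was higher at 1.63. Of DNA repair genes, 8 of 29 were lower and 5 higher, beside 14.6% and 22.3% of all tested genes, but all 5 higher ones (Atm, Atr, Prkdc, Trp53bp1 and Rad51b) are long and were within 1.5-fold after centring, at 1.04 to 1.16. The lower ones included Rpa2, Xpa (0.515), H2afx (0.476) and Rad50 (0.658).

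**Figure D4:**
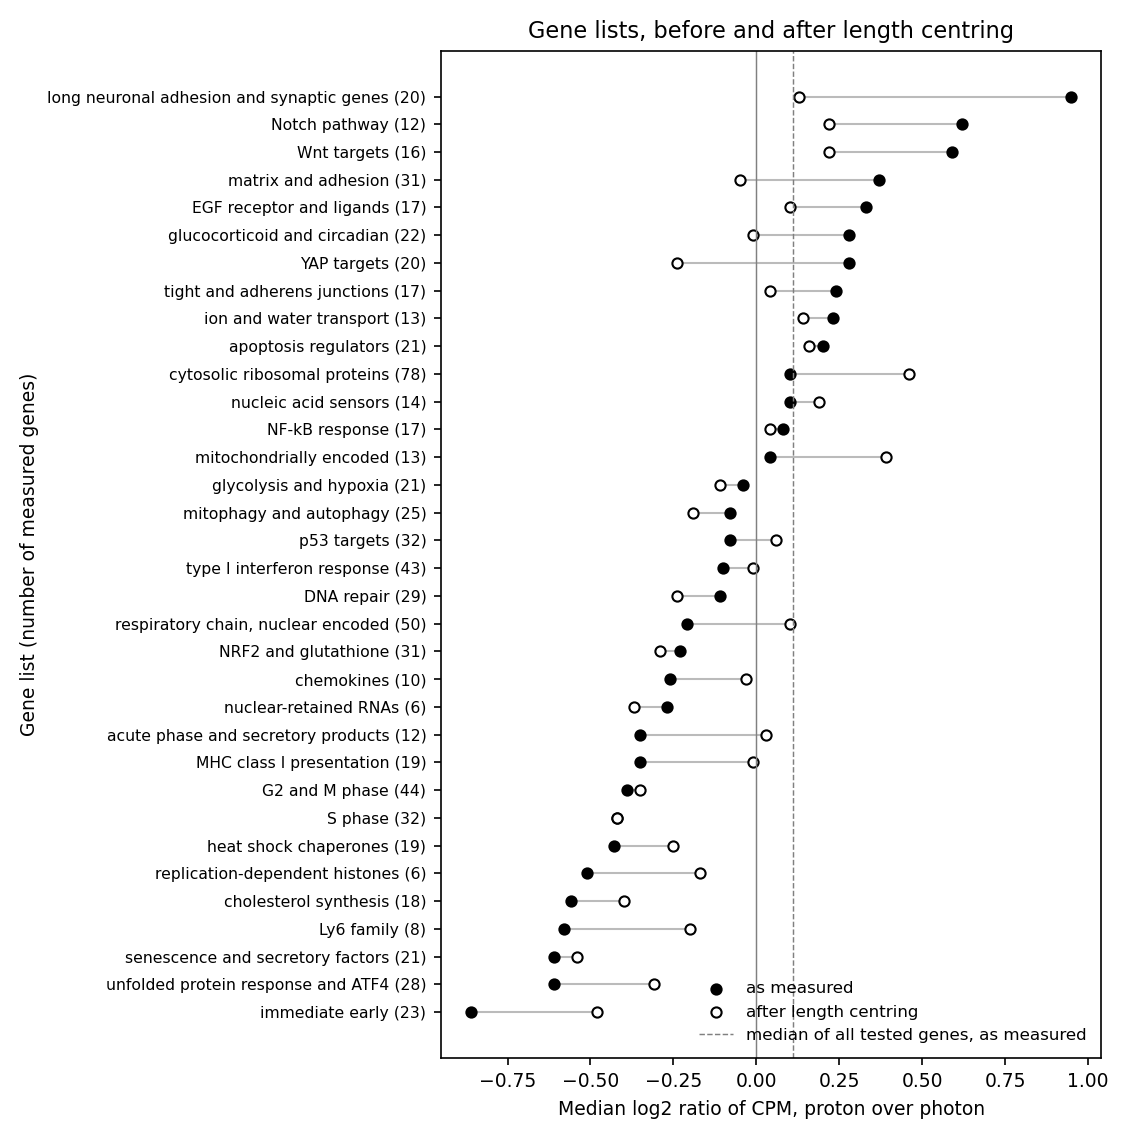
Each row is a gene list with its number of measured genes, and the x axis is the median log2 CPM ratio of proton over photon as measured (filled) and after length centring (open). The immediate early list stands lowest at -0.86, and the Notch, Wnt and long gene lists move from between 0.59 and 0.95 to between 0.13 and 0.22 after centring.

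Lists that stood high as measured were mostly tied to length. All 20 measured genes of a list of long adhesion, synaptic and fragile-site genes were higher, with a median of 0.95, and 0 remained after centring, where the median was 0.13. Pcdh9 was at 38.3 CPM in photon, 94.6 in proton and 33.9 in control, a ratio of 2.47, and 1.39 after centring. Among the genes tied to length the highest ratio was that of Bnc2, a zinc finger gene spanning 400181 bases, at 2.63, and 1.49 after centring. In the Wnt list 8 of 16 members were higher and 0 lower, and 1 remained. Lgr4 (1.90), which binds R-spondin, Znrf3 (1.89) and Lrp6 (1.77) were at 1.30, 1.20 and 1.18 after centring, while Fzd7, a short receptor gene, was at 1.72 and 2.27 centred. In the Notch list 6 of 12 were higher, among them Notch1 (1.75) and Notch2 (1.78), and only the coactivator gene Maml1 remained, at 2.21 and 2.03 centred. The target Hes1 was lower, at 0.566, or 0.745 after centring. Matrix and adhesion genes had 9 of 31 higher and 1 lower, beside 22.3% and 14.6% of all tested genes. Itga3 (1.91), Itgb4 (1.77) and Lama5 (1.93), which encode laminin-binding integrin chains and a laminin chain, remained after centring, but the list median moved from 0.37 to -0.05. Yap1 was higher at 2.18, and 1.53 centred, while 7 of the 20 members of the YAP target list were lower and 3 higher, with a median of 0.28 that was -0.24 after centring.

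The genes with the highest ratios among those past 1.5-fold before and after centring are given here. Whether their reads had a common source was not tested. Lars2, the mitochondrial leucyl-tRNA synthetase, was at 62.1 CPM in photon, 262 in proton and 60.7 in control, a ratio of 4.22 (4.05 to 4.40) and of 3.30 to 5.72 within clusters. After thinning, 6.14% of photon cells and 22.2% of proton cells held a Lars2 UMI (16.9% and 43.0% without thinning), and even the lowest cluster share in proton, 18.2%, was above the photon value. Photon was close to control for this gene. The noncoding gene models AY036118 (chr17:39847113-39848035, minus strand) and Gm42418 (chr17:39846958-39848788, plus strand) overlap each other at a locus known to collect ribosomal RNA reads. AY036118 was at 172 CPM in photon, 580 in proton and 230 in control, and Gm42418 at 3971, 13921 and 4148 CPM, ratios of 3.37 and 3.51. They lie on opposite strands, and the sources do not say whether counting used strand, so both values are uncertain. Gm42418 was added to the named genes after its value was seen. By the ratio as measured, and among genes above 25 CPM other than mt- genes, Camk1d (2.80), Cmss1 (2.77), Pde3b (2.66), Cpeb4 (2.56) and Fat2 (2.54) followed. After centring these 5 were at 1.58, 1.57, 1.78, 1.92 and 1.74, below shorter genes such as Rps2 (2.79), Spry2 (2.75) and Prrc2a (2.74).

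Ribosomal protein genes took 18.6% of photon UMIs, 20.3% of proton UMIs and 16.5% of control UMIs. Of 78, 10 were at least 1.5-fold higher in proton, all 10 after centring as well, and 5 were lower, none of them after centring. Where the median of a span class is below 0, as in the shortest classes, a gene higher as measured always stays so after centring. By the centred value alone, 33 of the 78 were at least 1.5-fold higher and 0 lower, against 699 and 996 of all 8560 tested genes. Over all tested genes 22.3% were higher and 14.6% lower, and 5.09% and 7.99% after centring. As measured, a smaller share of this list was thus past 1.5-fold than of all tested genes (36.9%). Rps29 was at 410 CPM in photon, 884 in proton and 277 in control, a ratio of 2.16, Rps2 at 744, 1579 and 437 CPM, a ratio of 2.12, and Rpl39 at 1698, 3296 and 1431 CPM, a ratio of 1.94. Rpl9 was at 299, 161 and 381 CPM, a ratio of 0.541, and Rps9 at 3193, 1781 and 2828 CPM, a ratio of 0.558. Subunits of 1 complex thus lay on both sides of 1. Ribosomal protein genes have many near-identical processed copies, so their counts, like that of Gapdh (183 CPM in photon, 366 in proton, a ratio of 2.00), are uncertain. The list median was 0.10, beside 0.11 for all tested genes, and 0.46 after centring. It was -0.01 with median scaling and 0.27 with 12 clusters weighted equally. In the 6 clusters it was between 0.08 and 0.38, above the median of all genes in 5 of them and below it in cluster 4, where all genes had 0.12.

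Of the 13 mitochondrially encoded protein genes, which are transcribed together from 1 circular genome, 1 was higher, 2 were lower and 10 were within 1.5-fold. This was a smaller share past 1.5-fold than the 36.9% of all tested genes. mt-Nd6, encoded on the strand opposite to the others, was at 53.5 CPM in photon, 15.1 in proton and 89.4 in control, a ratio of 0.282. mt-Cytb was at 2792, 1356 and 4293 CPM, a ratio of 0.486. mt-Nd1 (1.06) and mt-Nd2 (1.09) were close to 1, while mt-Atp8, the shortest of them, was at 28.9, 67.4 and 35.4 CPM, a ratio of 2.33. Of the nuclear genes of the respiratory chain, 5 of 50 were lower and 2 higher, fewer than the 36.9% past 1.5-fold over all tested genes, with log2 ratios from -0.73 to 0.90 against -1.83 to 1.22 for the mitochondrially encoded genes. They had Atp5e at 1.87 and Ndufa3 at 1.77 on one side and Ndufb3 at 0.601 on the other. Among nuclear-retained RNAs, Neat1 was at 573, 1213 and 1264 CPM, a ratio of 2.12, and Malat1 at 22785, 15188 and 37160 CPM, a ratio of 0.667. Xist was at 511 CPM in photon, 1018 in proton and 728 in control, with all 4 Y-linked genes at or below 0.202 CPM in each library.

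The lowest ratio of all tested genes was that of Psca, a glycosylphosphatidylinositol-anchored surface protein of the Ly6 family, at 68.2 CPM in photon, 3.32 in proton and 83.5 in control, a ratio of 0.0487 (0.0403 to 0.0584). It rested on few cells: 0.592% of photon cells and 0.143% of proton cells held a Psca UMI. After thinning 0.245% of photon cells (35 cells, exact 95% binomial interval 0.171% to 0.341%) and 0.0864% of proton cells (11 cells, 0.0431% to 0.154%) held one. The lowest cluster shares were 0.0527% and 0.0469%, both in cluster 0 (5690 and 4263 thinned cells) and both on very few cells with Psca. Most photon UMIs of Psca stood in clusters 4 and 5, at 188 and 786 CPM, where proton had 3.80 and 7.91, while in cluster 1 proton was higher, at 9.63 against 1.80 CPM. Without the 5% of barcodes with the most UMIs the log2 ratio was -2.41 in place of -4.36, and without cluster 6, a small cluster that Psca helps to define, it was -3.96. It was -3.47 after thinning, -3.36 with the mean of per-cell CPM, -4.70 without cluster 3, and with clusters weighted equally -5.18, or -3.31 with 12 clusters. Other members of the family were less far apart, with Ly6a at 5525, 3316 and 2074 CPM, a ratio of 0.600, and Ly6d at 2533, 1647 and 3989 CPM, a ratio of 0.650. Both were past 1.5-fold only before centring, and were at 0.764 and 0.827 after it.

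**Figure D5:**
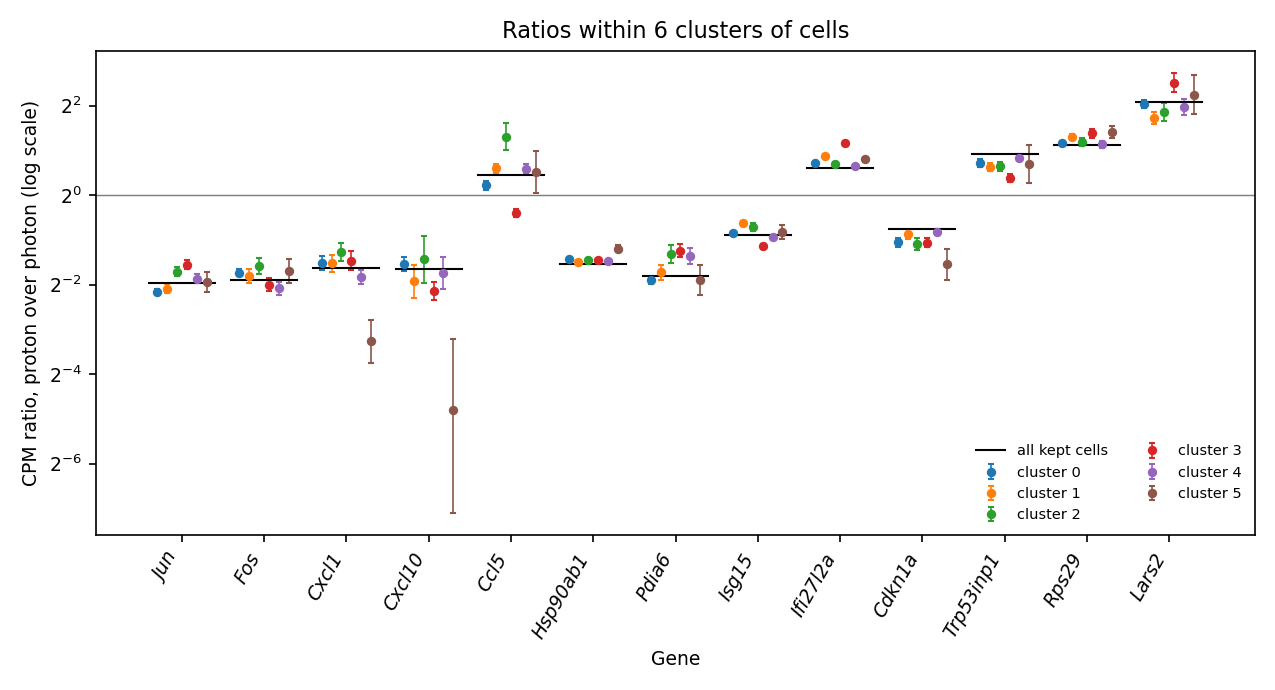
The y axis is the CPM ratio of proton over photon (log scale) of each gene inside each of 6 clusters of cells, with exact 95% counting intervals, and the black bar is the ratio over all kept cells. Jun, Fos, Cxcl1, Cxcl10, Hsp90ab1, Pdia6, Isg15 and Cdkn1a lie below 1 and Ifi27l2a, Trp53inp1, Rps29 and Lars2 above 1 in all 6 clusters, and Ccl5 is above 1 in 5.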

How the data were processed

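Cells from 3 libraries (control, photon and proton) were sequenced with 10x Genomics 3' chemistry, per the labels' protocols. The authors deposited raw UMI counts per gene and cell barcode, made with Cell Ranger 7.0.1 on mm10 per the submitters' processing notes (7.0.0 per the file headers). Not given in the sources used here were the annotation release and any use of intronic reads. Of 32285 gene IDs, 32235 matched a GENCODE model on GRCm38, which gave spans and exons. Promoter sequences came from RefSeq (GRCm38.p6).

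Barcodes with at least 500 genes and at most 20% mitochondrial UMIs were kept, and counts were summed per library and divided by the total to give CPM. Genes with a mean of at least 10 CPM over photon and proton were compared by the ratio of CPM, with an exact conditional binomial (Clopper-Pearson) 95% interval. Calls are by size (1.5-fold), because 1 library a group leaves no replicate and no test. For length centring, genes were split into 20 equal classes of span. The comparison was also run on simulated counts with counting error only, with and without a trend in gene length. These hold no variation among cultures or in cell mixture, so no conclusion about the calls is drawn from them. Cells of all 3 libraries were clustered together (30 components, 20 neighbours, Leiden resolution 0.5), leaving out response, cell cycle, ribosomal, mitochondrial and sex-linked genes. This gave 7 clusters, 6 of them with at least 100 cells in each library. They are called by number. Scrublet marked 0 cells in each library, so it did not work here and no doublets were removed.

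Named genes were the 12 highest and 12 lowest ratios above 25 CPM kept after centring (without mt-, Gm and Rik models), the 4 highest and 4 lowest tied to length, and in each of 34 gene lists the 4 largest and first 2 members, plus 8 genes known from earlier results. A further 39 genes were named after their values were seen, to show how members of a list differ. Some list members are not reported here. Of 932 list symbols, 924 matched and 750 were measured. The members and lists were chosen with earlier results of these data known. Alternatives varied scaling, minimum CPM, cell filters, depth, cell weights, cluster mixture, length classes and fold. Python 3.11.15, numpy 2.4.6, scipy 1.17.1, pandas 2.3.3, leidenalg 0.10.2 and igraph 0.11.9 were used.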

Additional observations from a re-analysis of the deposited data

Results flagged for a closer look

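Among the named genes, 7 lay past 1.5-fold on opposite sides of control in the 2 irradiated libraries. The difference was not tested, since each group is 1 library, and both ratios share the same control library. Fos was at 1.67 times control in photon and 0.450 times in proton. The disulfide isomerase gene Pdia6 was at 1.60 and 0.453 times control in the same order, the mevalonate pathway gene Pmvk at 1.82 and 0.573, and the cold-inducible gene Rbm3 at 1.51 and 0.547. In the other direction, the atypical cadherin gene Fat2 was at 0.626 times control in photon and 1.59 times in proton. The RNA-binding protein gene Cpeb4 was at 0.625 and 1.60, and Bnc2, past 1.5-fold between the irradiated libraries only before centring, at 0.590 and 1.55.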

How the results depend on the processing

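No paired analysis was possible because each group is 1 library, and for the same reason no library could be left out. Removing barcodes marked by Scrublet gave no value, since it marked 0. No value past 1.5-fold changed sign. Among smaller ones, 7 of 34 list medians and 16 of 235 genes did in at least 1 alternative, the largest reported at 0.35 and 0.36 in size, with medians of NF-kB between -0.14 and 0.12, nucleic acid sensors -0.11 and 0.16, mitochondrially encoded genes -0.20 and 0.08, and DNA repair -0.22 and 0.05. Of the counts and the length gradient, 67 values stayed close to those reported and 17 did not, of the list medians 470 did and 6 did not, and of the single genes, judged by their narrow counting intervals, 1925 did and 895 did not. With a minimum of 25 CPM, 214 higher and 411 lower genes were past 1.5-fold before and after centring. With no minimum, 4940 genes were higher and 3049 lower, 2001 and 3046 after centring, and the gradient was 0.35. With a 2-fold threshold, 256 genes were higher and 300 lower, 38 and 125 after centring. The gradient was 1.07 with the mean of per-cell CPM and 1.05 without cluster 3. With clusters weighted equally it was 0.87, with 1104 genes higher and a median of 0.71 for the long neuronal genes. With 12 clusters, chosen after seeing the data, it was 0.61, with 589 genes higher and medians of 0.45 for the long neuronal genes, 0.33 for Notch, 0.11 for matrix and 0.27 for ribosomal proteins, the last being -0.01 under median scaling. The cause of these shifts was not tested. Depth limits little, as the lowest tested gene had 122 UMIs, but counting intervals say nothing of the spread between cells or cultures.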

Other observations

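Of the apoptosis regulators, 5 of 21 measured genes were at least 1.5-fold higher in proton and 3 lower, near the 22.3% and 14.6% of all tested genes, and 0 and 2 after length centring, with a median log2 ratio of 0.20 that was 0.16 after centring. The ion and water transport list, which bears on saliva secretion, had 5 of 13 higher and 1 lower, and 1 and 1 after centring, where 5.09% and 7.99% of all tested genes were. In the EGF receptor list 5 of 17 were higher and 1 lower, beside the same 22.3% and 14.6%. Its feedback inhibitor Spry2 had a ratio of 2.09, and 2.75 after centring.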
